A study of Mus musculus with 4 samples.

Results

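The genes Fos, Fosb, Fosl1, Fosl2, Jun, Junb and Jund encode the subunits of the transcription factor AP-1. They were followed through a TNF time course by taking every probe set whose annotation named one of them, which gave 11 of the 45101 probe sets on the array and 7 of 18193 named genes. Membership went by gene name; the family itself was chosen with earlier results of these data known. Fosl1, Fosl2, Jun and Jund had 2 probe sets each, and Fos, Fosb and Junb had 1 each.

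The cells were mouse embryonic 3T3 fibroblasts, an immortal line, profiled on Affymetrix Mouse Genome arrays, which measure RNA with short oligonucleotide probes. For every group the labels list growth in 10% serum, 24 h of culture and 90% confluence. All cells were held overnight in 0.5% serum. They were then harvested without TNF (basal) or after 0.5, 2 or 12 h of TNF, an inflammatory cytokine. The concentration was 10 ng/ml at 0.5 h and 12 h, while the protocol text of the 2 h array names none and repeats that of basal cells. Each group is 1 array of a single cell line, so no spread between replicates exists, 0 tests were run, and the number of arrays limits the precision of every value. The TNF times have no matched arrays of untreated cells, so TNF and longer low serum cannot be told apart. The series title asks how mRNA stability shapes the order of inflammatory gene induction; these arrays measured RNA levels, not stability. In a bulk sample, fewer cells of a type and less RNA per cell cannot be told apart.

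A floor of 9.07, the 30th percentile of all signals, replaced lower ones. The brightest probe set of a gene, by mean log2 signal, stands for it. A gene or probe set is said to have risen or fallen only where the ratio was at least 2-fold. Over all probe sets, the median log2 ratio was -0.05, -0.12 and -0.20 after 0.5, 2 and 12 h of TNF, so later arrays were slightly dimmer throughout. The ratio of 3' to 5' signal of Actb, a check of RNA integrity, ran from 1.21 in basal cells to 1.26 at 12 h. Of 12 fibroblast markers, 8 or 9 had a signal of at least 102 (the 75th percentile of all values) on each array, with Col1a1 between 3320 and 3455; Thy1 (at most 14.6), Dcn (at most 19.9) and Lum (at most 20.7) were low. Among 8 macrophage and leukocyte markers, Ptprc, Itgam and Cd3e lay under the floor on all 4 arrays, and their summed signal ran from 238 to 263; Csf1r reached 69.3 and Cd14 reached 111. The summed signal of 6 endothelial markers was at most 78.5 and that of 6 epithelial markers at most 133.

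AP-1 is a dimer of basic leucine zipper proteins. Jun proteins can pair with each other or with Fos proteins, whereas Fos proteins need a Jun partner to bind DNA stably, and the dimers recognise a short palindromic site in enhancers and promoters. TNF receptors switch on the JNK, p38 and ERK kinase cascades: JNK phosphorylates Jun, and ERK acts on factors bound at the Fos promoter. Fos, Jun and Junb are classical immediate early genes, transcribed without new protein synthesis, and the Fos transcript carries AU-rich elements that make it short-lived.

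Promoter sequence is shown for the 3 members with the largest ratios at 0.5 h among the 6 measured above the floor on all 4 arrays; the ratio of Fosb is a bound and has no rank. RefSeq promoters of the GRCm38.p6 assembly were found for 6 of the 7 genes; none was listed for Fosl1. Each run below covers the 250 bases before the annotated start, 5' to 3' along the gene, at chr12:85473640-85473889 (Fos, plus strand), chr8:84978749-84978998 (Junb, minus strand) and chr4:95052223-95052472 (Jun, minus strand). Capitals mark the matches to the motifs named after the sequences.
Fos: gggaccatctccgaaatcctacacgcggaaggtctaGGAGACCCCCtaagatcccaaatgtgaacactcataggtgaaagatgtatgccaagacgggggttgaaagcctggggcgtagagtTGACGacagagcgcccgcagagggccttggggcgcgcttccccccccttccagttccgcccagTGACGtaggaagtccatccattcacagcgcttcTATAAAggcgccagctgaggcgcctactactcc
Junb: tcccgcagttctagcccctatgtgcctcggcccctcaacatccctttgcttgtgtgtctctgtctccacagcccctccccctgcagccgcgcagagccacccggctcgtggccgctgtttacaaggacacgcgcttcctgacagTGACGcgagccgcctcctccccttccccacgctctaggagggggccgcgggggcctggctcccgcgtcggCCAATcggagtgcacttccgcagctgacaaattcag
Jun: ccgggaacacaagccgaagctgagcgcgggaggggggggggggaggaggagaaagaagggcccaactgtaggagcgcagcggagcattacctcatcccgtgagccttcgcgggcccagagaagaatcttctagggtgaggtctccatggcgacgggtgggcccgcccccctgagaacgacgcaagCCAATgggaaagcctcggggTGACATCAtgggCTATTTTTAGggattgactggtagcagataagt

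In the Fos promoter the capitals are, in order, an NF-kB site on the minus strand, the letters TGACG (the left part of the cyclic AMP response element TGACGTCA) starting 129 and again 66 bases before the start, and a TATA box (TATAAA) starting 33 bases before it. The Junb promoter held TGACG starting 106 bases before the start and CCAAT starting 36 bases before it. The Jun promoter held CCAAT starting 65 bases, TGACATCA starting 45 bases and a MEF2 site starting 33 bases before the start. TGACATCA, a variant of the AP-1 site, is known as an element through which Jun can act on its own promoter. Both strands were searched, and TGACG lies within TGACGTCA. Of 32851 promoters of this length, TGACG was in 17.8%, TGACATCA in 2.93%, the MEF2 site in 0.508%, the NF-kB site in 7.25%, TATAAA in 12.4% and CCAAT in 33.8%. Of the 6 member promoters, TGACG was in 3 (Fos, Fosb and Junb), the NF-kB site in 3 (Fos, Fosb and Fosl2), CCAAT in 2, and TATAAA, TGACATCA and the MEF2 site in 1 each. The full TGACGTCA (1.55% of all promoters), the AP-1 site TGANTCA (6.75%) and the CArG box of serum response factor (1.47%) were in 0 of the 6, which says only that these letters are not in these windows. The matches are descriptions, not binding sites.

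Fos and Junb rose at 0.5 h and stood highest on that array, as did Jun and Fosl1, which stayed short of 2-fold. By 12 h all 4 were below basal, with each of the scalings tried too, and Fos had fallen. Fosl2 and Jund stayed short of 2-fold throughout. Fosb was dim on the TNF arrays, at most 18.9, and rose only at 12 h, as a lower bound set by the floor. Of the 7 genes, 4 had their highest signal at 0.5 h, 1 each at 2 h, at 12 h and in basal cells, and 6 had their lowest signal at 12 h. Of the 11 probe sets, 6 were highest at 0.5 h and 9 were lowest at 12 h. The share of all genes or probe sets highest or lowest on each array was not counted. The 12 h array was the dimmest, with a median log2 ratio of -0.20, so a lowest signal there is no trait of the family by itself.

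**Figure D1:**
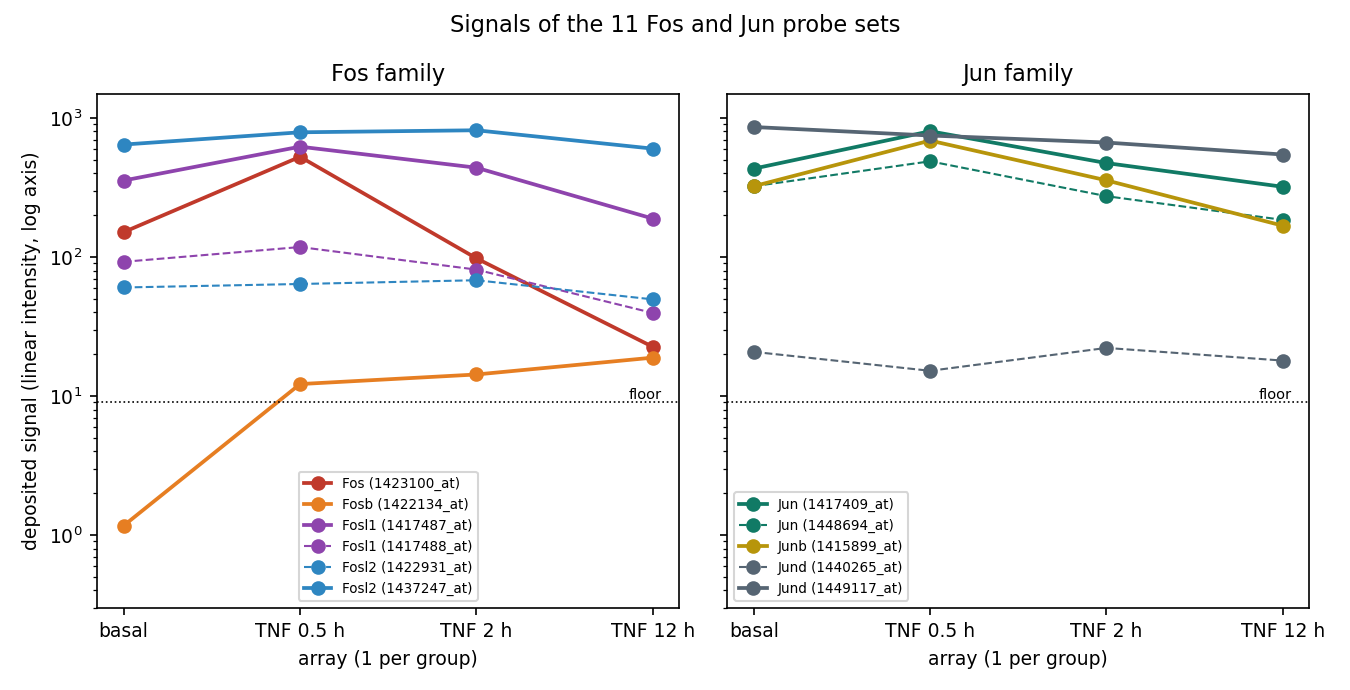
Deposited signal (linear intensity, log axis) of the 11 probe sets in basal cells and after 0.5, 2 and 12 h of TNF, 1 array per point; solid lines are the probe sets that represent a gene, dashed lines the others, and the dotted line is the floor of 9.07. Fos, Fosl1, Jun and Junb peak at 0.5 h, with Fos going on to the lowest signal of the 4 at 12 h, while Fosl2 and the brighter Jund probe set stay within a narrow range.

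Fos, the prototype of the family and the usual partner of Jun, had signals of 151 in basal cells and 526, 97.9 and 22.6 after 0.5, 2 and 12 h of TNF. It was high on the 0.5 h array alone and on the last array lay well below basal. The signal of 526 at 0.5 h, against 151 in basal cells, was a 3.50-fold rise (log2 ratio 1.81). At 2 h the log2 ratio to basal was -0.62, and at 12 h Fos had fallen 6.68-fold (-2.74; -0.57 if signals under 102 are raised to 102). Its highest and lowest signals differed 23.3-fold, the widest range among members that were above the floor on all 4 arrays.

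With no replicates there is no measure of error. The scatter of other probe sets of like brightness is given as a description. It does not show how much Fos itself varies between cultures or arrays. Among the 1000 probe sets nearest to Fos in mean signal, the log2 ratio at 0.5 h had a median of -0.05 and a scatter (scaled median absolute deviation) of 0.23, and 0.2% rose. At 12 h the median was -0.22 and the scatter 0.36, and 2.9% fell. Real changes widen this scatter. Among the 7314 genes whose highest signal was at least 102, Fos ranked 18th from the top at 0.5 h and 7th from the bottom at 12 h. Its ratios therefore lay far outside the scatter of its neighbours at 0.5 and 12 h. At 2 h (neighbour median -0.13, scatter 0.29) its ratio was much closer to that scatter. The neighbours were chosen by mean signal, whereas Fos at 12 h was dim, at 22.6. Among neighbours of the dimmer Jund probe set (15.2 to 22.2), the scatter at 12 h was wider, at 0.79, and 14% fell.

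Junb, a Jun protein that activates weakly at some Jun targets and can hold Jun in check, had signals of 323 in basal cells and 688, 356 and 168 after 0.5, 2 and 12 h of TNF. Only the 0.5 h array stood high; the 2 h array was near basal and the 12 h array was the lowest. Junb rose 2.13-fold at 0.5 h (log2 ratio 1.09, neighbour scatter 0.14), was at 0.14 at 2 h, and at 12 h had a log2 ratio of -0.95, short of 2-fold, against a neighbour scatter of 0.30. It ranked 28th of the 7314 genes at 0.5 h.

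Jun, the principal AP-1 subunit and a target of JNK, was measured by 2 probe sets. The brighter one (1417409_at) gave 432 in basal cells and 803, 474 and 320 after 0.5, 2 and 12 h of TNF. The other (1448694_at) gave 323, 488, 274 and 185 on the same arrays in the same order. Both were highest at 0.5 h and lowest at 12 h, with log2 ratios to basal of 0.89 and 0.60 at 0.5 h and of -0.44 and -0.80 at 12 h. At 2 h they differed in sign (0.13 and -0.24). None of these ratios reached 2-fold, although at 0.5 h the neighbour scatter was 0.13 for the brighter probe set and 0.15 for the other. At 12 h the brighter probe set lay within the scatter of its neighbours (median -0.25, scatter 0.27). The other lay below that of its own (median -0.23, scatter 0.30).

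Fosl1, which encodes Fra-1, a Fos protein without the strong activation domain of Fos, followed the same course. Its brighter probe set (1417487_at) gave 355 in basal cells and 622, 439 and 189 after 0.5, 2 and 12 h of TNF. The dimmer one (1417488_at) gave 92.4, 118, 81.2 and 39.6. Both peaked at 0.5 h, with log2 ratios of 0.81 and 0.35, and both were lowest at 12 h, with -0.91 and -1.22, so that only the dimmer probe set had fallen 2-fold; the mean of both was -1.06. At 2 h their ratios had opposite signs (0.31 and -0.19).

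Fosl2, which encodes Fra-2, gave 644 in basal cells and 789, 816 and 602 after 0.5, 2 and 12 h of TNF on its brighter probe set (1437247_at). The other (1422931_at) gave 60.4, 64.0, 68.1 and 49.6. Both were highest at 2 h and lowest at 12 h, within a range of 1.36-fold and 1.37-fold. The brighter probe set's log2 ratios were 0.29, 0.34 and -0.10 at the 3 times, beside a neighbour scatter of 0.11, 0.15 and 0.25, and the last was above 0 with median centring (0.06), quantile normalization (0.15) or loess (0.13).

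Jund, the Jun gene known for steady expression in resting cells, gave 861 in basal cells and 748, 666 and 546 after 0.5, 2 and 12 h of TNF on its brighter probe set (1449117_at). It was the only member whose representative probe set was highest in basal cells, and each later array was lower, down to a log2 ratio of -0.66 at 12 h. The median of its 1000 neighbours was -0.05, -0.12 and -0.23 at the 3 times, so probe sets of like brightness were also lower on later arrays, by less. This brighter probe set was below basal at all 3 times with every scaling. The second probe set (1440265_at) lay between 15.2 and 22.2, where the scatter of neighbours was 0.66 to 0.79. It was highest at 2 h, with a log2 ratio to basal of 0.09.

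Fosb, a close relative of Fos, was the dimmest member, at 1.17 in basal cells and 12.2, 14.3 and 18.9 after 0.5, 2 and 12 h of TNF. The basal array was under the floor, which made the ratios lower bounds: at least 1.35-fold, 1.57-fold and 2.08-fold higher at 0.5, 2 and 12 h. Only the last met the rule. Among neighbours in signal 8.9% rose and 14% fell at 12 h, so a change of this size was common at such signals.

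**Figure D2:**
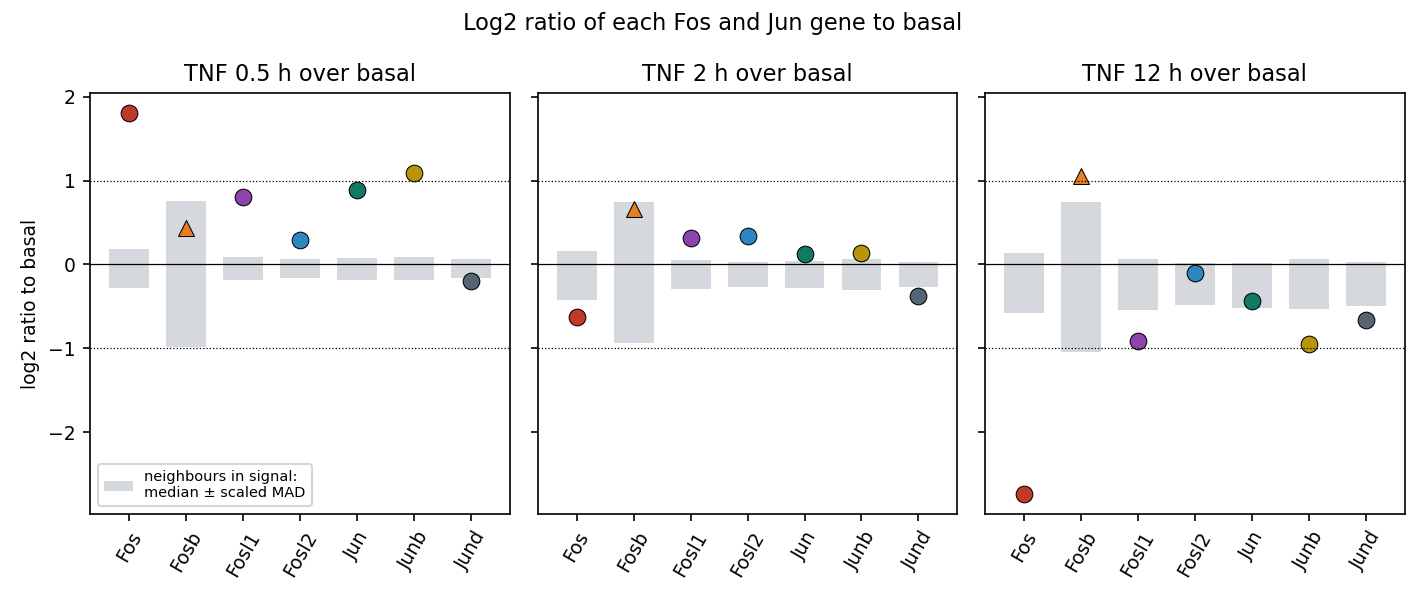
Log2 ratio to basal (vertical axis) of each of the 7 genes at 0.5, 2 and 12 h of TNF, 1 array per point; triangles are lower bounds, grey bars span the median ± scaled median absolute deviation of the 1000 probe sets nearest in signal, and dotted lines mark 2-fold. At 0.5 h Fos, Fosl1, Fosl2, Jun and Junb lie above their grey bars and Jund (-0.20) below its bar. At 2 h Fosl1, Fosl2, Jun and Junb lie above theirs, and Fos (-0.62) and Jund (-0.37) below. At 12 h Fos (-2.74), Fosl1, Junb and Jund lie below theirs, and Fosb (1.06, a bound) above its bar.

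At 0.5 h, 2 of the 7 genes (Fos and Junb) rose and 0 fell; of all 16274 genes analysed 2.57% rose and 2.97% fell. The family's median log2 ratio was 0.81, against -0.03 for all genes, and 6 of the 7 ratios were above 0. By probe set, 2 of 11 rose and 0 fell, against 2.97% and 3.53% of 38184 probe sets. The share of all genes past 2-fold is carried mostly by dim probe sets: among the 7314 genes with a highest signal of at least 102, 0.438% rose and 0.0684% fell. Of the 6 members in that class, all but Fosb, 2 rose and 0 fell.

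At 2 h, 0 of the 7 genes rose and 0 fell, beside 2.59% and 3.62% of all genes and, by probe set, 0 of 11 beside 2.86% and 4.14%. The median was 0.14, against -0.09 for all genes; with loess, 3.51% of all genes rose and 3.12% fell. At 12 h, 1 gene rose (Fosb, as a bound) and 1 fell (Fos), beside 2.81% and 5.18% of all genes; among genes with a signal of at least 102 these shares were 1.03% and 2.64%, with 0 and 1 of the 6 members. With median centring, 3.82% of all genes rose and 3.58% fell, and of the 7 genes 1 rose and 1 fell. By probe set 1 rose and 2 fell, beside 2.83% and 5.87%. The family's median of -0.66 compares with -0.14 for all genes and -0.21 for the brighter class, and 6 of the 7 ratios were below 0, of which that of Fosl2 was above 0 with each of the 3 scalings. The 3 comparisons share the basal array, so they are not independent of each other.

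**Figure D3:**
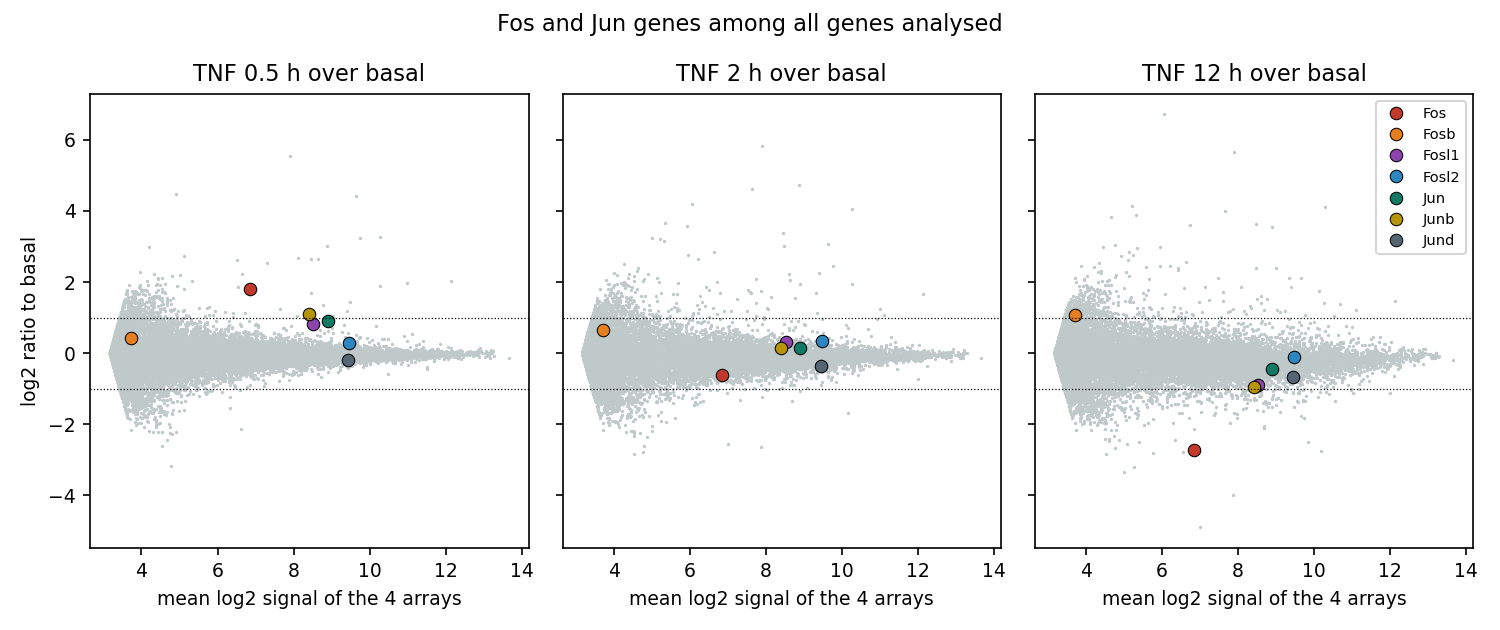
Log2 ratio to basal (vertical axis) against mean log2 signal over the 4 arrays (horizontal axis) for the 16274 genes analysed (grey) and the 7 Fos and Jun genes (coloured), at 0.5, 2 and 12 h of TNF; dotted lines mark 2-fold. Fos stands above the grey cloud at 0.5 h and below it at 12 h, while Fosb sits in the wide scatter of dim genes.

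The steps between arrays showed where the signals dropped. From the 0.5 h array to the 2 h array, Fos fell 5.38-fold (97.9 at 2 h, against 526 at 0.5 h; log2 ratio -2.43), the 5th lowest ratio of the 7314 genes. It was the only member of the 7 to fall at this step, beside 2.97% of all genes; 0 rose, beside 2.61%. Junb (-0.95) and Jun (-0.76 and -0.83 for its 2 probe sets) were lower but short of 2-fold. Fosl1 was at -0.50 and -0.54, and Fosl2 at 0.05 and 0.09. The 2 probe sets of Jund differed in sign, at -0.17 for the brighter and 0.54 for the dim one.

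From 2 h to 12 h, 3 of the 7 genes fell, beside 3.13% of all genes, and 0 rose, beside 2.81%. Fos fell 4.34-fold (22.6 at 12 h, against 97.9 at 2 h), Fosl1 fell 2.32-fold and Junb fell 2.12-fold (a log2 ratio of -0.98, short of 2-fold, with quantile normalization or loess). The second probe set of Fosl1 also fell, 2.05-fold. Both Jun probe sets were at -0.57, Fosl2 at -0.44 and -0.46, and Jund at -0.29 and -0.30. Within a gene, the 2 probe sets of Fosl1, Fosl2, Jun and Jund differed by at most 0.18 (log2) at this step. The gap between them was up to 0.49 in the ratios to basal, and 0.71 for Jund from 0.5 h to 2 h. The steps share arrays with the ratios to basal and restate the same 4 signals.

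Genes whose pattern was most like that of a member were sought for the members past 2-fold at any time, by the Euclidean distance over the 3 log2 ratios to basal among genes with a signal of at least 102. For Junb the nearest were Btg2 (distance 0.19, log2 ratios 1.14, 0.09 and -1.13), an antiproliferative early response gene, and then Fosl1 (0.33), Klf10 (0.42), Csrnp1 (0.48) and Ier2 (0.51). For Fos the nearest, the early growth response gene Egr1, lay at 1.48, with log2 ratios of 0.76, -1.68 and -2.74, followed by Ptgs2 (1.63), Errfi1 (1.69), Klf10 (1.74) and Ier2 (1.81). No gene of that brightness had ratios as close to those of Fos as the first 5 were to Junb. Few genes had ratios as large as those of Fos, so its larger distances do not show a time course of its own. No distances are given for Fosb, whose ratios are set by the floor. These distances rest on 4 arrays and describe likeness of level.

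Around AP-1, most genes for partners and regulators were short of 2-fold on every array. Of 24 AP-1 partners and related basic leucine zipper factors, 1 rose at 0.5 h, 1 at 2 h and 0 at 12 h, and 0, 0 and 1 fell, beside 2.57%, 2.59% and 2.81% of all genes that rose and 2.97%, 3.62% and 5.18% that fell. A count of 1 in a list this short is near those shares. The bright gene among them was Cebpd, a C/EBP factor of the acute phase response, which rose 3.87-fold to 1114 at 2 h, against 288 in basal cells; its second probe set also passed 2-fold (1.21). Batf, which pairs with Jun proteins in lymphocytes, was listed at 18.9 at 0.5 h and under the floor elsewhere, and Batf3 fell 3.19-fold to 9.60 at 12 h, both dim. Atf3, a stress-induced partner of Jun, had signals of 77.9 in basal cells and 132, 93.4 and 98.2 after 0.5, 2 and 12 h of TNF and stayed short of 2-fold. Jdp2, a repressor that pairs with Jun, stayed between 570 and 682. The list's median was 0.02, 0.04 and 0.06 at the 3 times, against -0.03, -0.09 and -0.14 for all genes.

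Of 23 kinase genes of the JNK, ERK and p38 cascades, 1 rose and 1 fell at 0.5 h, 0 changed at 2 h, and 1 rose and 2 fell at 12 h. Of all genes, 2.57% rose and 2.97% fell at 0.5 h, 2.59% and 3.62% at 2 h, and 2.81% and 5.18% at 12 h. The kinase counts are near that background, and all of the kinase genes that changed had signals below 102. Map3k8, encoding the kinase Tpl2 that links TNF to ERK, rose 2.69-fold at 0.5 h (43.6, against 16.2 in basal cells) and was back at 15.2 at 2 h. Map3k1 fell under the floor on its brighter probe set at 0.5 h, against 26.3 in basal cells, but its other probe set gave a log2 ratio of 1.68 without a floor. At 12 h Mapk11, encoding p38-beta, rose to 36.1 and Map2k6 fell to 10.4. Mapk8 and Mapk9, the genes of JNK1 and JNK2, had log2 ratios between -0.38 and 0.14.

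Among 15 factors that bind Fos and Jun promoters, 0 rose at any time and 1 fell, at 12 h, when 5.18% of all genes fell, so the count is near the background. It was Srf, encoding serum response factor, with 497 in basal cells and 497, 383 and 217 after 0.5, 2 and 12 h of TNF. This was a 2.29-fold fall that its second probe set shared (-1.26). With quantile normalization or loess, 0 of the 15 fell 2-fold at 12 h, beside 3.41% and 3.55% of all genes. The list's median at 12 h was -0.48, against -0.14 for all genes. Of 8 genes for turnover and modification of Jun and Fos proteins, such as the ubiquitin ligase genes Fbxw7, Itch and Cop1, 0 changed at any time. Their log2 ratios ran from -0.44 to 0.10. Over the 3 times, 2.57% to 2.81% of all genes rose and 2.97% to 5.18% fell. A count of 0 in 8 genes is near those shares.

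Of 12 genes for proteins that bind AU-rich RNA elements or act on poly(A) tails, 0 changed at 2 or 12 h. Of all genes, 2.59% rose and 3.62% fell at 2 h, and 2.81% and 5.18% at 12 h. At 0.5 h 1 of the 12 rose, beside 2.57% of all genes. It was Zfp36, encoding tristetraprolin, which marks AU-rich transcripts for decay, with 95.6 in basal cells and 552, 145 and 79.3 after 0.5, 2 and 12 h of TNF. Like Fos, it was highest at 0.5 h (log2 ratio 2.53). At 2 h it was at 0.61, where Fos was at -0.62, and at 12 h its ratio of -0.27 was near the median of the brighter class (-0.21), where Fos was at -2.74. Zfp36l2 had a log2 ratio of 0.41 at 0.5 h and -0.94 at 12 h.

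Of 31 genes reported as AP-1 targets in fibroblasts, 2 rose and 1 fell at 0.5 h, 4 rose and 1 fell at 2 h, and 6 rose and 0 fell at 12 h. Of all genes, 2.57% rose and 2.97% fell at 0.5 h, 2.59% and 3.62% at 2 h, and 2.81% and 5.18% at 12 h. The 3 metalloproteinase genes among the 6 were higher on each successive array. Mmp13, a collagenase gene, had signals of 36.0 in basal cells and 55.6, 143 and 437 after 0.5, 2 and 12 h of TNF. Mmp3 had 282, 329, 495 and 1471 and Mmp10 had 19.4, 20.4, 31.8 and 95.3 on the same arrays. Their highest signals thus came at 12 h, when Fos, Fosl1, Jun and Junb were at their lowest. These are RNA levels: AP-1 protein and activity were not measured, and a link between them and these genes was not tested. Ccl2, which many other factors also control, rose 9.63-fold at 0.5 h, and the metallothionein gene Mt2 rose to 943 at 2 h and 1239 at 12 h. Csf2 (at most 31.7) and Il11 (at most 18.3) were dim genes that rose from under the floor, and Dcn (at most 19.9) was the gene that fell. With the floor at the 50th percentile of signals, 1 target rose and 0 fell at 0.5 h, beside 0.482% and 0.41% of all genes. At 2 h 0 targets fell with that floor (0.763% of all genes), median centring (2.89%), quantile normalization (2.83%) or loess (3.12%). The list's median was 0.06 at 0.5 h and 0.00 at 2 and 12 h. By the counts most of its members were short of 2-fold at each time, Ccnd1, Timp1 and Plaur among them. Ereg, encoding the growth factor epiregulin, had 388 in basal cells and 772, 468 and 283 after 0.5, 2 and 12 h of TNF; its log2 ratio of 0.99 at 0.5 h was just short of the rule.

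**Figure D4:**
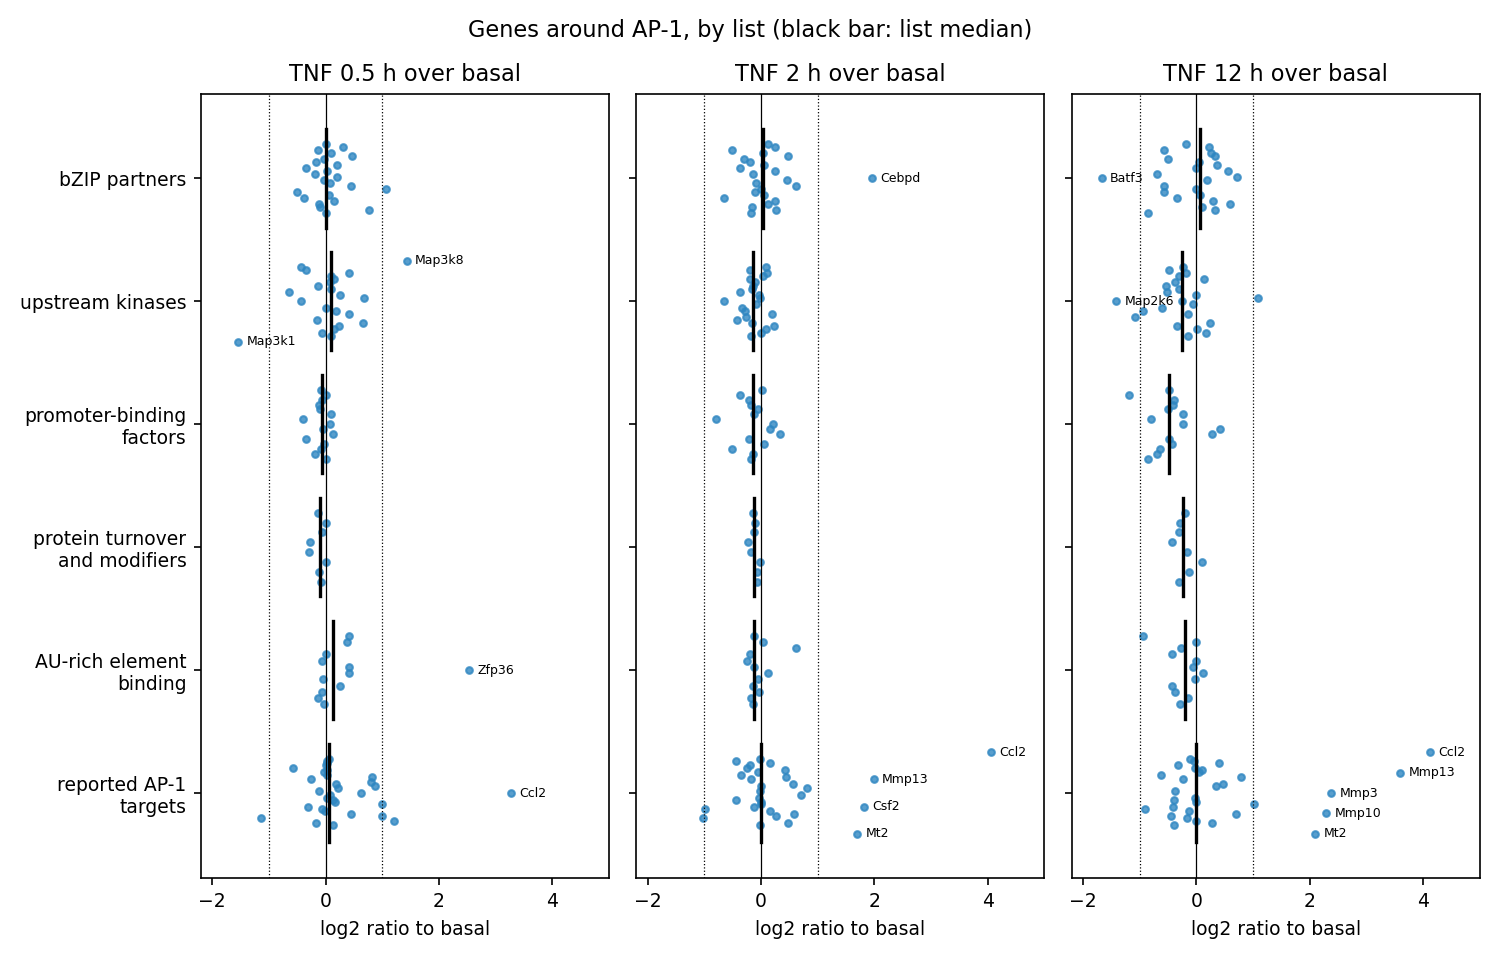
Log2 ratio to basal (horizontal axis) of each analysed gene of 6 lists around AP-1 (rows) at 0.5, 2 and 12 h of TNF, 1 array per point; black bars are list medians and dotted lines mark 2-fold. Zfp36 (2.53) and Ccl2 (3.27) stand out at 0.5 h, and Ccl2, Mmp13, Mmp3 and Mmp10 at 12 h, while the list medians lie between -0.48 and 0.13.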

How the data were processed

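RNA levels were measured on 4 Affymetrix Mouse Genome arrays, 1 per group, from 8 µg of total RNA each, per the labels' protocols; groups were taken from the sample titles. The authors deposited linear intensities, each above 0 and none pooled. How the authors computed and scaled them is not given in the sources used here, so differences in overall brightness may be technical. Of 45101 probe sets, 64 were controls. A single gene was annotated to 34958 probe sets; 932 had several and named none. Symbols of 34754 probe sets were found in RefSeq genes of GRCm38.p6; 0 changed. List genes without a probe set named here were not analysed.

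Ratios were taken after the floor, with no further scaling; both sides at the floor counted as 0 in medians. Of 18193 named genes, 1919 lay at the floor throughout and 16274 were analysed. The 6 lists and the family were chosen with earlier results of these data known. Named list genes were, at each time, up to 4 changes past 2-fold with a signal of at least 102 and up to 2 dimmer ones; Atf3, Jdp2, Mapk8, Mapk9, Mapk11, Zfp36l2, Ereg, Fbxw7, Itch, Cop1, Ccnd1, Timp1 and Plaur were chosen after their values were seen. Genes of like pattern were the 5 nearest. Alternatives were floors at the 20th, 50th and 75th percentile and none, median centring, quantile normalization, loess (span 0.3), averaging the probe sets of each gene, and 3-fold and 1.5-fold rules. The scripts, checked on simulated data, used Python 3.11.15, numpy 2.4.6, pandas 2.3.3 and statsmodels 0.14.6.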

Additional observations from a re-analysis of the deposited data

How the results depend on the processing

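No paired analysis was possible because each group holds 1 array and the results come from no test; for the same reason no replicate could be left out. The count of genes that rose at 0.5 h was 2 with median centring (2.64% of all genes), quantile normalization (2.69%) and loess (3.03%). The mean of the probe sets, for which no share is given, also gave 2. The count was 2 as well with floors at the 50th (0.482%) or 75th percentile (0.328%). It was 3 with the floor at the 20th percentile or none, which added Fosb, when 5.8% and 9.03% of all genes rose, 1 with the 3-fold rule (0.492%) and 4 with the 1.5-fold rule (7.58%). At 2 h, 1 gene rose with the floor at the 20th percentile (5.57% of all genes), with no floor (8.82%) and with the 1.5-fold rule (6.85%), and 1 fell with the 1.5-fold rule (11.2%). At 12 h the count that rose was 0 with floors at the 50th (0.972% of all genes) or 75th percentile (0.615%). It was also 0 with the 3-fold rule (0.633%). Fosb was the gene concerned, and its signals lay under both floors. The count that fell at 12 h was 0 with the floor at the 75th percentile (1.72% of all genes). It was 4 with the 1.5-fold rule (16.2%) and 2 with the mean of the probe sets, for which no share is given. The log2 ratio of Fos ran from 1.81 to 1.86 at 0.5 h over 9 settings; at 12 h it was -2.74 as reported and -0.57 with the floor at the 75th percentile, which lies above its 2 and 12 h signals. Median centring gave Fosl2 a log2 ratio of 0.06 at 12 h, quantile normalization 0.15 and loess 0.13, against -0.10 as reported. For Fosb without a floor the ratios were 3.39, 3.61 and 4.02 at the 3 times. Fosl1 passed 2-fold at 12 h with the mean of its probe sets (-1.06). The step of Junb from 2 to 12 h was -0.98 with quantile normalization or loess, short of 2-fold. Over all genes, loess gave 735 higher and 586 lower at 12 h, median centring 621 and 582, and no scaling 457 and 843.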
